A study of Mus musculus with 2 samples.

Results

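The granule proteins, proteases and receptor chains of eosinophils, basophils and mast cells were examined in erythroid progenitors through 10 genes, out of 20660 genes named on the array. The genes were Prg2, Epx, Ear1 and Ear2 of eosinophils, Prss34 and Mcpt8 of basophils, and Ms4a2, Fcer1a, Cpa3 and Hdc, which mast cells and basophils share. They were picked by name when the ratios of the same 2 arrays were already known, so the values below describe these genes and test nothing. Pre CFU-E, committed progenitors that give rise to erythroid colony-forming cells, had been sorted from the bone marrow of WT and ESAM-KO C57BL/6 mice aged 8 to 12 weeks. All mice in both groups had received 120 mg/kg of 5-FU, a drug that kills cycling marrow cells, 8 days earlier, and untreated mice were not on the arrays analysed here. Cells of 3 mice were pooled per genotype and each pool was measured on 1 array, so the spread between mice is unknown. The ESAM-KO mice lack the adhesion molecule ESAM in blood cells and in the rest of the body. The sort took cells without lineage antigens that were low or negative for Fcγ receptors, low for CD41, negative for Sca1, and positive for c-Kit, endoglin and CD150.

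Eosinophils fill their granules with toxic cationic proteins, namely major basic protein, eosinophil peroxidase and ribonucleases of the Ear family. Basophils and mast cells instead carry histamine and serine proteases, and are triggered through the high-affinity IgE receptor FcεRI, built from an α chain (Fcer1a), a β chain (Ms4a2) and a γ chain (Fcer1g). All of these lineages arise in the marrow from progenitors that use GATA factors, which erythroid cells also use. Eosinophils depend in addition on PU.1 and C/EBP factors, a need that is not theirs alone.

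The signal of a probe is the scanner software's processed spot intensity, and a ratio is ESAM-KO over WT after each array was divided by its 75th percentile of signal, 201.4 for WT and 251.1 for ESAM-KO. The error given after ± is the scanner software's own estimate for the 2 spots and not a spread between replicates. The lowest signals well above background were 12.6 for WT and 13.2 for ESAM-KO, and a gene under background on one array has a bound in place of a ratio, or none where the bound would be under 1-fold. For the dim array the bound takes that lowest signal, or the probe's own where it is higher. A gene above background on a single array can thus count in a single direction only. A fold given as at least a value rests on such a bound under this scaling, and can be smaller under other processing. Under background means here not flagged as well above background. The single probe of Esam itself (NM_027102) read 27.4 in WT and 20.6 in ESAM-KO, for a log2 ratio of -0.73 ± 0.31, a difference of less than 2-fold near background. Where this probe lies relative to the deleted part of the gene is not given in the sources used here, so it is a weak check of the labels. All 14 genes of an erythroid list were above background on both arrays, among them Klf1 at 1149 in WT and 1147 in ESAM-KO.

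The 250 bases before the transcription start are shown for the members that carry one of the motifs searched, because the 4 eosinophil members were all lower in ESAM-KO, whereas Ms4a2 and Hdc, the shared members with a ratio, were not. These sequences come from RefSeq on build GRCm38.p6, which had an entry for 9 of the 10 members, all but Prg2. The letters AGATAA or TGATAA, which GATA factors can bind, and TTGCNNAA, which C/EBP factors can bind, were searched on both strands and are in capitals. On the opposite strand the GATA letters read TTATCT or TTATCA. The 2 motifs did not overlap in any member. Ear1 (chr14:43819640-43819889, minus strand) and Ear2 (chr14:44102404-44102653, plus strand) are shown as a pair, since they are nearly the same sequence.
Ear1: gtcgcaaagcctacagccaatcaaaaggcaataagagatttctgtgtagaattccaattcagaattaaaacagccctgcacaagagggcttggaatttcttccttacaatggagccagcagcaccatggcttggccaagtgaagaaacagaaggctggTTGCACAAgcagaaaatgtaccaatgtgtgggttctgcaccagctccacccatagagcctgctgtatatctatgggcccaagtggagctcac
Ear2: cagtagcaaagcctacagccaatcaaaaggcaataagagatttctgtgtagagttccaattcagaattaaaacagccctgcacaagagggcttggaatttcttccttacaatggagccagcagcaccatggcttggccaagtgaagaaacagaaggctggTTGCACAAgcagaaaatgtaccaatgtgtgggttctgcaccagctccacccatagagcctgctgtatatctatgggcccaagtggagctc
The pair aligned over 252 positions with 246 identical bases, or 97.6%, and the remainder was 2 mismatches and 4 gap bases. Each holds 1 C/EBP match, TTGCACAA, ending 85 bases before the start in Ear1 and 83 in Ear2, and neither holds a GATA match. Epx, the remaining eosinophil member with an entry, holds neither motif.

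Prss34 (chr17:25298144-25298393, plus strand), Ms4a2 (chr19:11623720-11623969, minus strand), Fcer1a (chr1:173227230-173227479, minus strand) and Cpa3 (chr3:20242182-20242431, minus strand) are shown because they are the 4 members with a GATA match.
Prss34: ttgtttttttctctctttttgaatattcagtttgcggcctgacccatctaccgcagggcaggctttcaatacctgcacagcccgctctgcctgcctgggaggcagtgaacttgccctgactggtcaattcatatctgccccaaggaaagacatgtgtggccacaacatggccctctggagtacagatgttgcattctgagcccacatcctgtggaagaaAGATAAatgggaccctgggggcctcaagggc
Ms4a2: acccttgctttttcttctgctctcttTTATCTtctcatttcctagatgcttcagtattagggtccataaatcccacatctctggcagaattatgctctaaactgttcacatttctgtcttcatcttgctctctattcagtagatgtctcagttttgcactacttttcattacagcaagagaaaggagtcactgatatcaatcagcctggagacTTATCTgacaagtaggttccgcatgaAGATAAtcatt
Fcer1a: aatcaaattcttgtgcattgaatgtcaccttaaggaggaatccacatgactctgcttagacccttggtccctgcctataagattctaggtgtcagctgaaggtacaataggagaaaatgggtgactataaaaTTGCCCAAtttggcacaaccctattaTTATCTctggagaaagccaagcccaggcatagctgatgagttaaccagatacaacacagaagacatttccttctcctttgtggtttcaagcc
Cpa3: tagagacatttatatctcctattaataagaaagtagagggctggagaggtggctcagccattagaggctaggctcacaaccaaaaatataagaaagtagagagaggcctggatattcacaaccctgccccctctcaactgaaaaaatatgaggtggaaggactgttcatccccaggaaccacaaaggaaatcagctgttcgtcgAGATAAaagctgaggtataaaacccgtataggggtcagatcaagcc
Ms4a2 holds 3 GATA matches, whose last letters lie 219, 32 and 6 bases before the start. Prss34, Fcer1a and Cpa3 hold 1 each, at 26, 87 and 41 bases, and Fcer1a also holds a C/EBP match, TTGCCCAA, at 111 bases. A GATA match thus occurred in 0 of 3 eosinophil members, 1 of 2 basophil members and 3 of 4 members shared by mast cells and basophils. Of 4 further eosinophil genes searched in the same way, Prg3, a second major basic protein gene, holds a GATA match ending 118 bases before the start, Ear10 and Rnase2a hold a C/EBP match each, at 87 and 210 bases, and Ear6 holds neither. Among all 32851 promoters in the RefSeq table, 16.6% held a GATA match and 9.56% a C/EBP match in the same window. A match is a description of the letters, and a window without one says nothing about the factor.

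The groups of members read differently on the arrays, but too few values stand behind 2 of them to show a difference between lineages. Of the basophil members 1 has a ratio, which is a bound. Of the shared members 2 have one, and that of Ms4a2 is a bound. With the scaling used here, all 4 eosinophil genes were lower in ESAM-KO by at least 9.12-fold, and Prss34 of basophils by at least 7.54-fold. In contrast, Ms4a2 was higher in ESAM-KO by at least 2.61-fold, Hdc differed by less than 2-fold, and Mcpt8, Fcer1a and Cpa3 were not well above background on either array. These folds depend on the processing. With normexp background correction and quantile normalization, the log2 ratios were -2.33 for Epx, -1.43 for Ear2, -1.08 for Prss34 and 0.45 for Ms4a2. Of the 10 members, 7 had a ratio, of which 5 were lower by more than 2-fold, 1 was higher and 1 was within 2-fold. Over all 14136 genes with a ratio, 8.43% were lower by more than 2-fold and 6.99% were higher, and the median log2 ratio was 0.0006. The members were chosen with this contrast known, so nothing is read from their count against these shares. Fewer cells of a type in the sorted pool and less RNA per cell cannot be told apart in bulk RNA.

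**Figure D1:**
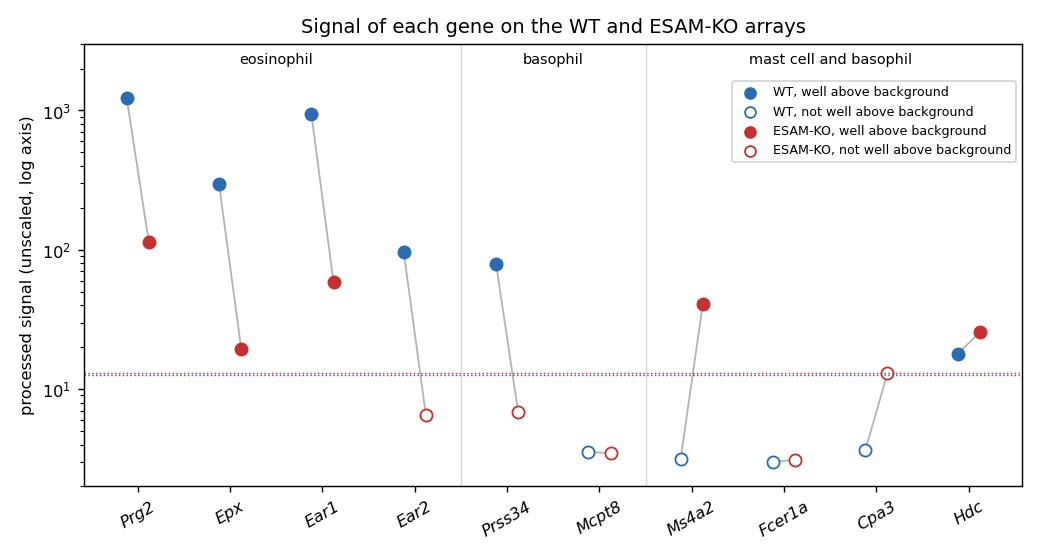
Processed signal of the 10 members on the WT and the ESAM-KO array, on a log10 axis in arbitrary units. Blue points are WT and red points ESAM-KO, each 1 probe on 1 array, open points are not well above background, and the dotted lines mark the lowest signals well above background, 12.6 in WT and 13.2 in ESAM-KO. The 4 eosinophil genes and Prss34 drop from WT to ESAM-KO, whereas Ms4a2 crosses the line upwards.

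Prg2 (NM_008920) encodes major basic protein, the crystalline core of the eosinophil granule. Its signal was 1223 in WT and 113 in ESAM-KO, for a log2 ratio of -3.76 ± 0.21, or 13.5-fold lower. Epx (NM_007946), the peroxidase of the granule matrix, gave 295.7 in WT and 19.5 in ESAM-KO, for a log2 ratio of -4.24 ± 0.29, or 18.9-fold lower. The ESAM-KO signal of Epx was thus close to the lowest signal well above background on that array. Before any scaling between the arrays, the WT signal was 10.8 times that of ESAM-KO for Prg2 and 15.2 times for Epx.

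Ear1 and Ear2 encode eosinophil-associated ribonucleases, the mouse relatives of eosinophil cationic protein. Ear1 (NM_007894) read 940.2 in WT and 58.4 in ESAM-KO, for a log2 ratio of -4.33 ± 0.22, or 20.1-fold lower. Ear2 (NM_007895) read 96.2 in WT and 6.53 in ESAM-KO, where it was not well above background, so its bound was 9.12-fold lower. With normexp the log2 ratio of Ear2 was -1.43. The Ear genes are close copies of each other, like the promoters printed above, and their probes may bind each other's cDNA, so the values of single Ear genes are uncertain. Among the 12615 genes well above background on both arrays, Ear1 had the fourth lowest log2 ratio (rank 4), Epx had rank 5 and Prg2 had rank 18. The neutrophil genes Ctsg and Ltf stood at ranks 3 and 6 in that order, and Ctsg encodes the granule protease cathepsin G.

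Both basophil members encode serine proteases. Prss34 (NM_178372) encodes a tryptase-like protease of basophils and some mast cells, and read 79.6 in WT and 6.82 in ESAM-KO, where it was under background. Its bound was a log2 ratio of -2.92, whereas the ratio of the signals as measured was -3.86. Mcpt8 (NM_008572), the protease most used to mark mouse basophils, read 3.53 in WT and 3.48 in ESAM-KO. No ratio is given for it, and the defining basophil protease was thus under background in both genotypes.

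Ms4a2 (NM_013516), the β chain that amplifies signals of the IgE receptor, read 3.17 in WT, under background, and 40.9 in ESAM-KO. Its bound was a log2 ratio of 1.38, with the lowest signal well above background standing in for the WT spot, and the ratio as measured was 3.37 with a scanner error of 1.46. With normexp background correction and quantile normalization the log2 ratio of Ms4a2 was 0.45, within 2-fold. Fcer1a (NM_010184), the IgE-binding α chain, read 2.99 in WT and 3.11 in ESAM-KO. Cpa3 (NM_007753), carboxypeptidase A3 of mast cell and basophil granules, read 3.64 in WT and 12.99 in ESAM-KO, the latter just under the lowest signal above background on that array, 13.15. Neither Fcer1a nor Cpa3 has a ratio. Hdc (NM_008230), histidine decarboxylase, which makes histamine, read 17.9 in WT and 25.5 in ESAM-KO, for a log2 ratio of 0.19 ± 0.38 that its own error exceeds.

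The summed signal of the 4 eosinophil members was 2556 in WT and 197.1 in ESAM-KO, and that of the 2 basophil members was 83.1 and 10.3. The 4 members shared by mast cells and basophils summed to 27.7 in WT and 82.5 in ESAM-KO, with 1 and 2 of them above background. Summed signals here and below are before scaling and include genes under background. The ESAM-KO array was the brighter one, with a 75th percentile of 251.1 against 201.4 for WT. The median log2 ratio was -4.00 for the 4 eosinophil members, -2.92 for the basophil members, which is the bound of Prss34 alone, and 0.79 for Ms4a2 and Hdc, the 2 of the 4 shared members that had a ratio.

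**Figure D2:**
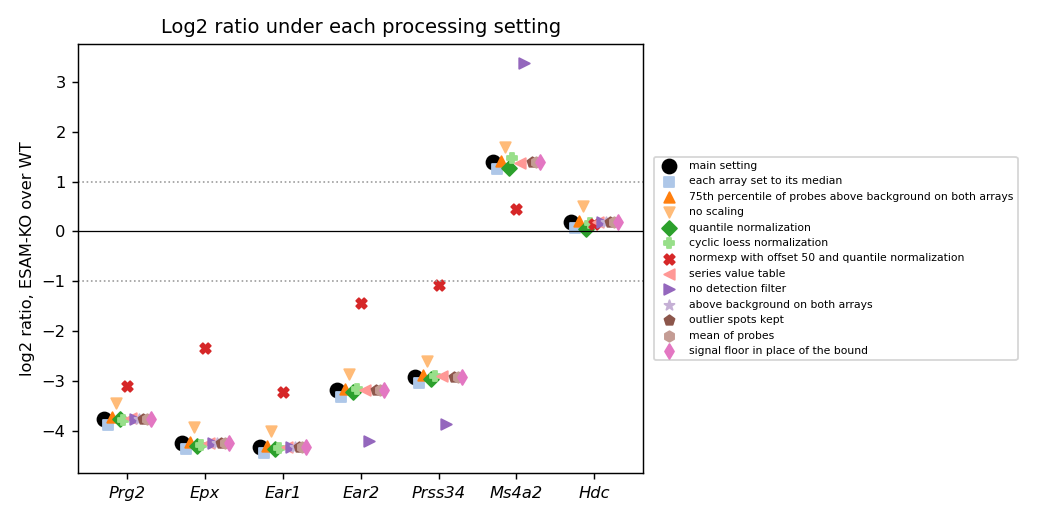
Log2 ratio of ESAM-KO over WT for each member with a ratio, under the scaling used here (main setting, black circles) and under each other scaling, background correction and filter that gave a value, with each setting as its own symbol. The dotted lines mark 2-fold, and the eosinophil genes and Prss34 lie below -1 throughout, whereas Ms4a2 runs from 0.45 to 3.37 and Hdc from 0.04 to 0.51.

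Further eosinophil genes were taken from a list of 14, of which 13 had a named probe. Outside the 4 members, 7 genes had a ratio, and 5 of them were lower by more than 2-fold and 0 higher. Over all genes with a ratio, 8.43% were lower and 6.99% higher. Of the 5, Prg3 and Ear6 were above background only in WT, so they could not have counted as higher. Prg3 (NM_016914), a second major basic protein, read 605.6 in WT and 15.5 in ESAM-KO, not well above background there. It was 48.8-fold lower by a bound that uses its own ESAM-KO signal and so equals the ratio as measured. On the log2 scale the bound of Prg3 was -5.61, with a scanner error of 0.37, and its value was -3.23 with normexp. Since other genes under background in ESAM-KO also have only bounds, the place of Prg3 in the order of all genes is not known. The ribonuclease genes Rnase2a, from 243.5 to 45.7, and Ear10, from 300.3 to 74.7, had log2 ratios of -2.73 ± 0.23 and -2.33 ± 0.21. Ear6, another ribonuclease of the family, was at least 2.81-fold lower, but its log2 ratio was -0.44 with normexp. Siglecf, a surface lectin of eosinophils, had 2 probes, the brighter with a log2 ratio of -1.93 and the dimmer with a bound of -1.30, and the brighter was at -0.90 with normexp.

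The 2 receptors on that list did not go with the granule genes. Il5ra, the chain that binds the eosinophil growth factor IL-5, read 144.4 in WT and 234.4 in ESAM-KO, for a log2 ratio of 0.38 ± 0.21. Ccr3, the eotaxin receptor, was near background at 16.8 and 18.5, a log2 ratio of -0.17 ± 0.43 that became 0.14 without scaling. Alox15, the lipoxygenase of eosinophils, was above background only in ESAM-KO, at 15.2 against 5.91 in WT, with a log2 ratio of 1.04 as measured but a bound under 1-fold, so that no ratio is given. The ribonuclease gene Rnase2b was under background on both arrays. The 9 genes of the list that were lower were Prg2, Prg3, Epx, 5 ribonuclease genes and Siglecf. Over the 11 genes with a ratio the median log2 ratio was -2.73. The summed signal of all 13 named genes was 4023 in WT and 651.5 in ESAM-KO.

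**Figure D3:**
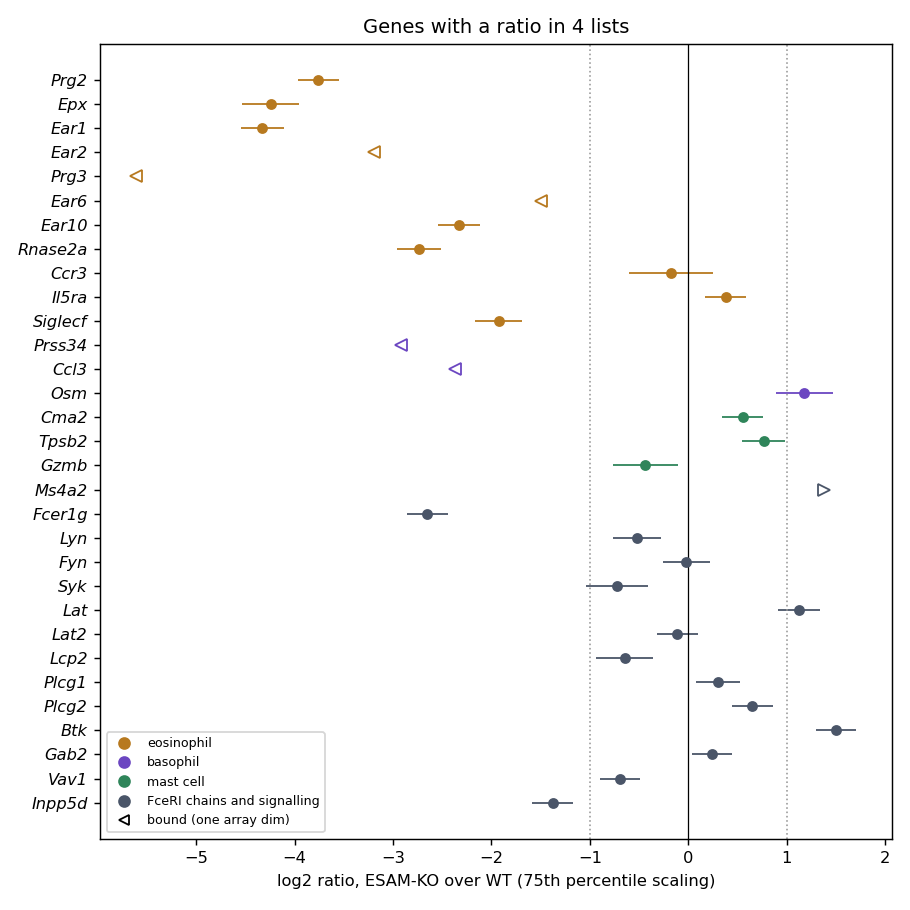
Log2 ratio of ESAM-KO over WT for the genes with a ratio in the eosinophil, basophil, mast cell and IgE receptor lists, coloured by list. Circles were measured on both arrays with the scanner software's error as bars, open triangles are bounds that point away from 0, and the dotted lines mark 2-fold. The granule genes of eosinophils lie far left of 0, whereas Il5ra and Ccr3 lie close to it.

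The basophil list had 8 genes, and 5 of them, Mcpt8 included, were under background on both arrays. Apart from Prss34, Ccl3, an inflammatory chemokine, was at least 5.18-fold lower, reading 54.7 in WT and 3.18 in ESAM-KO. Osm, the cytokine oncostatin M, was higher, with 22.7 in WT and 64.1 in ESAM-KO, for a log2 ratio of 1.18 ± 0.29. Ccl3 and Osm were both within 2-fold with normexp, at -0.80 and 0.44. Prss34 and Ccl3 were above background only in WT, so neither could have counted as higher.

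Of the 13 mast cell genes with a named probe, 10 were under background on both arrays, Cpa3 among them. The 3 with a ratio were the proteases Cma2, at 0.55 ± 0.21, Tpsb2, at 0.77 ± 0.22, and Gzmb, at -0.44 ± 0.33 on the log2 scale, none past 2-fold. The second probe of Tpsb2 was at 1.00 and the brighter one at 1.08 without scaling. The summed signal of the mast cell list, before scaling and with its genes under background, was 250.7 in WT and 424.5 in ESAM-KO. Among its protease genes, Mcpt2, Mcpt4 and Mcpt9 were not well above background on either array. Cma2, at 118.3 in WT and 216.3 in ESAM-KO, and Tpsb2, at 57.6 and 122.1, were well above it on both.

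The IgE receptor needs its γ chain, Fcer1g, which also serves activating Fcγ receptors. In contrast with Ms4a2, Fcer1g was lower in ESAM-KO, from 456.8 to 90.7, a log2 ratio of -2.65 ± 0.21. Thus of the 3 receptor chains, α was under background on both arrays, β was above it only in ESAM-KO, and γ was above it on both. Among 13 genes of the receptor and its signalling besides the members, the γ chain counted, 2 were lower and 2 higher. The shares over all genes with a ratio were 8.43% lower and 6.99% higher. The kinase gene Btk was 2.84-fold higher by its brighter probe, whereas the dimmer probe had a log2 ratio of 0.84, and the adaptor gene Lat was at 1.13 ± 0.21. The lower one besides Fcer1g was Inpp5d, which encodes the phosphatase SHIP1 that restrains the pathway, at -1.38 ± 0.21. With normexp Lat was at 0.69.

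Hdc belongs to a list of 11 genes for histamine, lipid mediators and granule matrix, of which 9 had a ratio. Pla2g4a, the phospholipase that releases arachidonic acid, was higher, at 1.31 ± 0.20, and Alox5ap, which hands it to 5-lipoxygenase, was lower, at -1.12 ± 0.20 and at -0.81 without scaling. The median log2 ratio of the list was 0.19, which is the value of Hdc itself.

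Of 10 receptors for cytokines and chemokines of these lineages, 2 were lower and 0 higher, beside 8.43% and 6.99% of all genes with a ratio. Csf2rb2, the β chain of the mouse IL-3 receptor, read 137.8 in WT and 7.40 in ESAM-KO, at least 13.1-fold lower, but its dimmer probe gave a bound of only 1.71-fold. With normexp the log2 ratio of Csf2rb2 was -1.66. Its near copy Csf2rb, the β chain shared by the receptors for IL-3, IL-5 and GM-CSF, was at -0.56 ± 0.20, and probes of the pair may bind each other's cDNA. Crlf2, a chain of the receptor for the cytokine TSLP, was at -1.08 ± 0.20, and at -0.77 without scaling. Kit, the stem cell factor receptor on which mast cells depend and an antigen of this sort, read 3414 in WT and 3326 in ESAM-KO, for a log2 ratio of -0.36 ± 0.20.

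Of 17 transcription factors of these lineages, 15 had a ratio, and 2 were lower and 0 higher. Spi1, which encodes PU.1, read 439.8 in WT and 36.9 in ESAM-KO, or 14.9-fold lower. Cebpe, which eosinophils and neutrophils need for their granules, was at least 6.84-fold lower, with 72.1 in WT, and its log2 ratio was -0.93 with normexp. Gata1 read 5959 in WT and 5889 in ESAM-KO, for a log2 ratio of -0.34 ± 0.20. Gata2, the GATA factor of mast cells and basophils, was at -0.03 ± 0.20, a sign that turned to 0.29 without scaling. Cebpa and Mitf, at 0.52 and 0.58, were within 2-fold as well. Over these 7 lists without the 10 members, 56 of 75 named genes had a ratio, and 13 were lower, 4 higher and 39 within 2-fold. Of the 13 lower genes, 5 had only a bound. Over all genes with a ratio, 8.43% were lower by more than 2-fold and 6.99% higher.

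Some marker lists of other blood cells were also lower in ESAM-KO. All 15 named genes of a neutrophil granule list were lower by more than 2-fold, with a median log2 ratio of -3.30 and a summed signal of 61804 in WT and 10349 in ESAM-KO. Its defining genes were above background in WT and mostly in ESAM-KO, 15 and 14 of 15, with Mpo, myeloperoxidase, at 1703 and 149.9 and Elane, neutrophil elastase, at 334.9 and 42.3. Of 6 monocyte and macrophage genes with a ratio, 3 were lower, and the summed signal of that list was 7196 in WT and 7526 in ESAM-KO. Summed signals are before scaling, and this sum is mostly the brightest of 3 probes of Csf1r, at 6554 and 7310. Of 7 B cell genes, 4 were lower, and their summed signal was 583.6 in WT and 229.7 in ESAM-KO. Of 14 erythroid genes, 6 were lower and 0 higher, with a median log2 ratio of -0.49. Of 7 megakaryocyte genes 2 were lower and 2 higher, and of 3 T and NK cell genes with a ratio 1 was lower. Among the genes counted here as past 2-fold, Gp9, Ppbp, Gp1ba, Cd3d, Igll1, Ebf1 and F13a1 had only bounds. With normexp, Gp9, Ppbp, Gp1ba, Vwf, Cd3d and F13a1 were within 2-fold, at -0.31, -0.33, 0.56, 0.74, -0.52 and -0.55. So were the B cell genes Igll1, Ebf1 and Cd79b, at -0.99, -0.50 and -0.70, whereas Vpreb1 was at -1.69. Beside these counts, 8.43% of all genes with a ratio were lower and 6.99% higher. The part of these other cells in the values of the eosinophil and basophil genes was not tested. Of 8 sort antigen genes with a ratio, 1 was lower and 0 higher. The lower one, Ly6a of Sca1, read 61.1 in WT and was under background in ESAM-KO, a bound of 5.79-fold, or -0.78 on the log2 scale with normexp. Itgam of the lineage antigen Mac1 read 76375 in WT and 82076 in ESAM-KO by the brightest of 3 probes, whereas the other probes read 269.6 and 81.7 in WT.

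**Figure D4:**
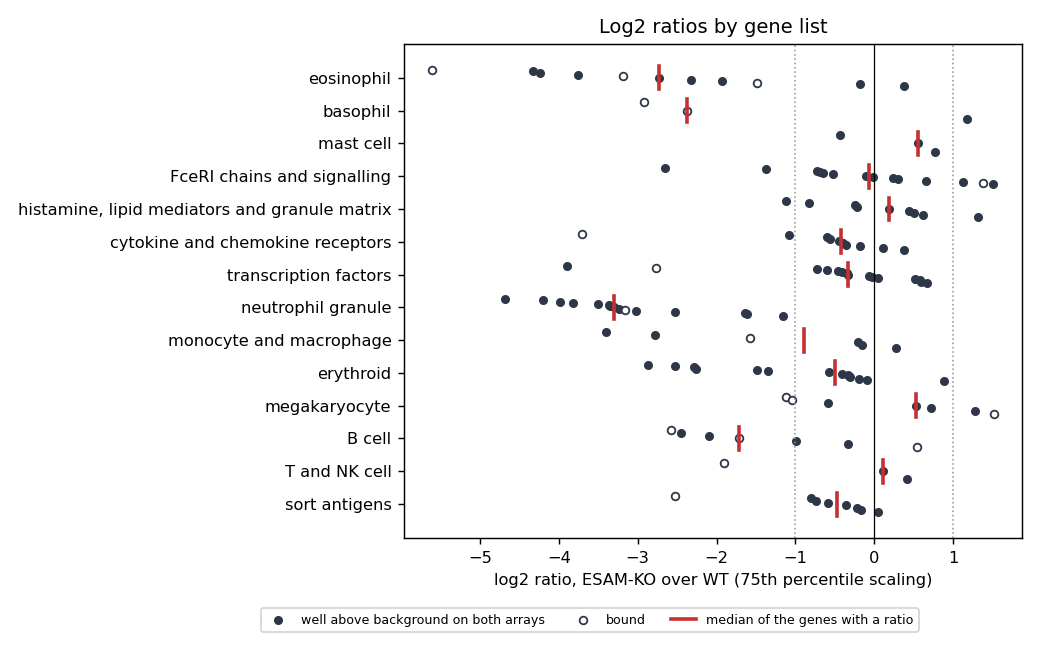
Log2 ratio of ESAM-KO over WT for every gene with a ratio in 14 lists, with filled points for genes well above background on both arrays, open points for bounds and a red bar at the median of each list. Dotted lines mark 2-fold. The eosinophil and neutrophil granule lists reach furthest to the left, with medians of -2.73 and -3.30, whereas the mast cell median is 0.55.

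Several members lie in clusters of related genes, so the 3 protein-coding genes on either side of each member in RefSeq order were also examined. Of 57 such neighbours, 30 had a ratio, and 5 were lower and 1 higher by more than 2-fold. Over all genes with a ratio, 8.43% were lower and 6.99% higher. The 5 lower neighbours, Prg3, Mpo, Ear10, Ctsg and Ms4a3, also belong to the eosinophil or neutrophil granule lists above. Prg3 is the gene next to Prg2, whereas Slc43a3 on the other side of Prg2 was at -0.47 ± 0.20 and P2rx3, beyond Prg3, at 0.65 ± 0.20. Mpo lies 3 genes from Epx, both peroxidases, while Lpo, another peroxidase gene between them, was at 0.23 ± 0.22, or -0.02 with normexp, and Mks1, next to Epx, at -0.15 ± 0.39, or 0.16 without scaling. Ear10 is the gene next to Ear1.

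Around Mcpt8, under background itself, Ctsg on one side was 25.7-fold lower, from 1373 to 66.6, and Mcpt4 on the other was under background on both arrays. Next to Ms4a2, Ms4a3, a gene of granulocyte progenitors, was lower, from 240.3 to 97.8, a log2 ratio of -1.62 ± 0.21, the opposite direction from Ms4a2. Ackr1, a chemokine-binding protein gene 3 genes from Fcer1a, was at least 2.62-fold higher, but at 0.40 on the log2 scale with normexp. Prss28, next to Prss34 and also a serine protease gene, was at -0.15 ± 0.20, and at 0.17 without scaling. Genes that were lower and genes within 2-fold were thus adjacent around Prg2 and Epx.

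**Figure D5:**
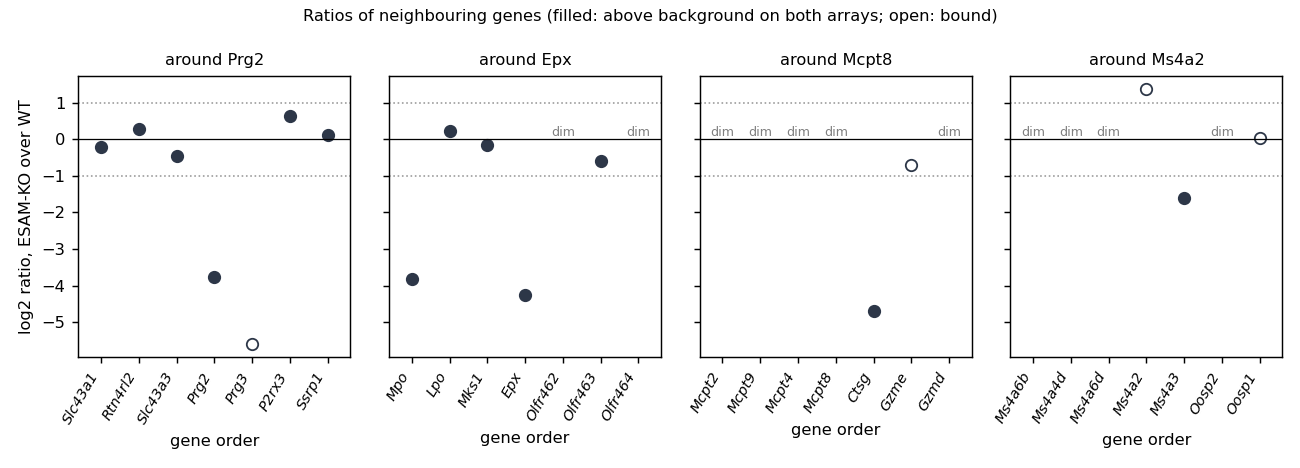
Log2 ratio of ESAM-KO over WT for Prg2, Epx, Mcpt8 and Ms4a2, 1 panel each with the member in the middle, and for the 3 protein-coding genes on either side in RefSeq gene order. Filled points were measured on both arrays, open points are bounds, and genes under background on both arrays are marked as dim. Prg3 beside Prg2 and Ctsg beside Mcpt8 lie far below 0.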

How the data were processed

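Pre CFU-E RNA was amplified by a whole transcriptome kit, labelled with Cy3 and hybridised to 1 Agilent SurePrint G3 mouse array per genotype. Per the labels the scans were read with Agilent Feature Extraction 10.10.1.1, and its deposited output gives each spot's intensity after background subtraction within the array, not scaled between arrays, and a series table of the same intensity. From each log2 intensity the log2 of the array's 75th percentile was subtracted. Control spots and 254 outlier spots were left out, spots of a probe were averaged, and a probe counted as well above background if over 50% of its spots did. The probe with the highest mean log2 signal stood for its gene. RefSeq accessions in the files, matched without versions to a table of assembly GRCm38.p6, named 27235 of 55680 probes. The arrays give no replicate, so 2-fold is the criterion and no test was run.

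The members and gene lists were chosen with earlier results of these data known. The genes named are the members, Esam, the genes of the lists past 2-fold, the brightest of each list, Gata1, Gata2, Kit, Il5ra, Csf2rb, Fcer1g and Prg3, and neighbours of members, and the other list genes named were chosen after their values were seen. Of 154 list genes, 149 had a named probe, and 1 further gene of these lists is not reported here. The alternatives were other scalings, the series table, normexp (offset 50), other filters and probe summaries, a signal floor, and thresholds of 3-fold and 4-fold. The tools were Python 3.11.15 (pandas 2.3.3, biopython 1.88) and limma 3.58.1 in R 4.3.3. The counting was tested on simulated data in which only bright genes, above background on both arrays, were changed. Changes in dim genes and bounds were thus not covered by that test. The number of arrays limits the precision.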

Additional observations from a re-analysis of the deposited data

How the results depend on the processing

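The 5 members lower by more than 2-fold were lower by more than 2-fold under every alternative that gave them a value, and were 3 when a gene had to be above background on both arrays, which gives no value for Ear2, Prss34 and Ms4a2. The 1 member that was higher, Ms4a2, became 0 with normexp, with both arrays above background, at 3-fold and at 4-fold, and 2 with no detection filter. The eosinophil median of -4.00 was -3.68 with no scaling and -2.72 with normexp, and the basophil value of -2.92 was -1.08 with normexp and -2.10 with no detection filter. Normexp adds an offset, which shrinks the ratios of dim probes, and used median spot signals. Under the alternatives, Prg2 lay between -3.89 and -3.11, Epx between -4.37 and -2.33, Ear1 between -4.46 and -3.23, Ear2 between -4.20 and -1.43 and Prss34 between -3.86 and -1.08. Over all genes, the 1191 that were lower became 729 with no scaling, 486 with normexp, 2308 without the detection filter, 504 at 3-fold and 294 at 4-fold, and the 988 that were higher became 1804, 236, 1800, 317 and 155 in that order. The median of all genes moved to 0.31 with no scaling, to -0.13 with each array set to its median and to -0.14 with no detection filter. Of 81 member ratios, 70 shifted within the scanner error and 11 beyond it, and of 392 list counts, 347 stayed within 1.5 times. No paired analysis was possible because the arrays number 1 per genotype. Signal over background limits Mcpt8, Fcer1a and Cpa3, which have no ratio.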
